A study of Mus musculus with 24 samples.

Results

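The genes described here are named for the proteins of the mitochondrial ribosome. They were taken as every non-control probe of the array whose gene name starts with Mrpl or Mrps followed by a number. Mrpl stands for the large and Mrps for the small subunit, though name and place do not always match. This gave 106 probes of 76 genes. The brightest probe stood for a gene, and a gene entered the test when 4 or more arrays of some group had that probe well above background. Of the 76 genes, 75 were tested, among 12936 tested genes of the whole array, and 57 of the 75 were well above background on all 24 arrays. Mrpl35 was not tested, because its probe was well above background on 4 arrays in all, of which 1 was WT_0Gy, 1 WT_8.8Gy and 2 Parp1-KO_6Gy. The tested members were 46 Mrpl and 29 Mrps genes, none with a missing or saturated value. The names are those of the array, so the array's Ict1 and Mrp63, which RefSeq now calls Mrpl58 and Mrpl57, are not members.

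The RNA came from whole blood of 129S/J males, 1 mouse per array, and was measured on 1-colour Agilent arrays. Wild-type mice were sham-exposed (WT_0Gy, n = 5) or given 6 Gy (WT_6Gy, n = 5) or 8.8 Gy (WT_8.8Gy, n = 4) of X rays, and mice lacking Parp1 (Parp1-/-), which makes poly(ADP-ribose) at DNA breaks, were sham-exposed (Parp1-KO_0Gy, n = 5) or given 6 Gy (Parp1-KO_6Gy, n = 5). Blood was drawn from the heart 24 h after exposure, and globin RNA was removed. The dose lethal to 50% of animals within 30 days was 8.8 Gy in wild-type and 6 Gy in Parp1-/- mice, per the series description. No source used here gives the age of the animals. The labels name no tissue-specific driver for the loss of Parp1, so effects within blood cells and effects from other tissues cannot be told apart.

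Mitochondria keep a small genome whose few protein-coding genes all specify core subunits of the respiratory chain and the ATP synthase. These are translated inside the organelle by a ribosome whose RNAs come from the mitochondrial genome and whose proteins are all encoded in the nucleus, made in the cytosol and imported. Many of these proteins descend from bacterial ribosomal proteins, while others have no bacterial counterpart. Mature red cells and platelets have no nucleus, and red-cell precursors lose their mitochondria and ribosomes as they mature, so their transcripts in blood can come from nucleated leukocytes, from reticulocytes and from platelets.

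Some arrays stood apart before any member was considered. Between 36.4% and 57.5% of the probes of an array were well above background. The lowest share was on Parp1-KO_0Gy replicate 3. Its 75th percentile of the log2 processed signal was also the lowest, at 5.57, with the next lowest at 6.07. The arrays labelled Parp1-KO_6Gy replicate 1 and WT_8.8Gy replicate 2 were nearly equal, with an SD of their log2 differences of 0.167 over 10767 probes. That SD was 0.262 for the pair that came next, and its median over the 276 pairs was 0.901. Parp1 itself went against the label on the array labelled Parp1-KO_6Gy replicate 1, where it was well above background at -1.67, and on the array labelled WT_8.8Gy replicate 4, where it was not, at -3.95. Every other Parp1-/- array lay between -5.01 and -2.29 with Parp1 not well above background. Among the wild-type arrays, Parp1 was also not well above background on WT_6Gy replicate 1 (-1.27) and on WT_6Gy replicate 2, whose -2.33 lay within that range. Calls that rest on any of these arrays are in most cases also given without them. All WT_0Gy arrays were scanned on day 4, all WT_6Gy and WT_8.8Gy arrays on day 3, and the Parp1-KO_0Gy arrays on days 1 and 2, while the Parp1-KO_6Gy arrays fell on days 3, 4 and 1. Scan day and group can therefore not be told apart for the wild-type responses.

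The blood label was borne out by its markers. Neutrophil, T cell and platelet markers were well above background on all arrays of a group for at least 7 of 8 genes in each list, and B cell markers for 4 to 6 of 8. Hepatocyte markers, which blood cells should lack, varied widely within every group. Their mean level over 8 genes ranged from -3.84 to 7.23 in WT_0Gy, from -1.95 to 6.30 in WT_6Gy, from -2.35 to 6.26 in WT_8.8Gy, from -2.99 to 6.42 in Parp1-KO_0Gy and from -3.13 to 6.21 in Parp1-KO_6Gy arrays. In no group was a hepatocyte marker below background on every array. Heart muscle markers reached 5.50 on Parp1-KO_6Gy replicate 3.

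Most of the 75 members rose and fell together from array to array, also within groups. All levels below are log2 processed signals, with each array's 75th percentile set to 0, and levels of different probes are not compared. The median level of the members on an array was lowest on Parp1-KO_0Gy replicate 3, at 0.168, and highest on WT_0Gy replicate 1, at 1.94. In WT_0Gy the array medians were 1.94, 1.18, 1.22, 0.909 and 1.47, in WT_6Gy 1.28, 0.242, 0.495, 1.36 and 1.92, and in WT_8.8Gy 0.227, 0.722, 1.59 and 0.894. They were 1.80, 0.978, 0.168, 1.15 and 1.25 in Parp1-KO_0Gy and 0.761, 1.06, 1.58, 1.25 and 0.318 in Parp1-KO_6Gy. The 5 group means of these medians spanned 0.487, the arrays of 1 group spanned between 1.03 and 1.68, and all 5 groups overlapped. A mean over several arrays varies less than a single array, so these spans cannot be compared directly. The SD within groups, pooled over the 5 groups, was 0.550.

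**Figure D1:**
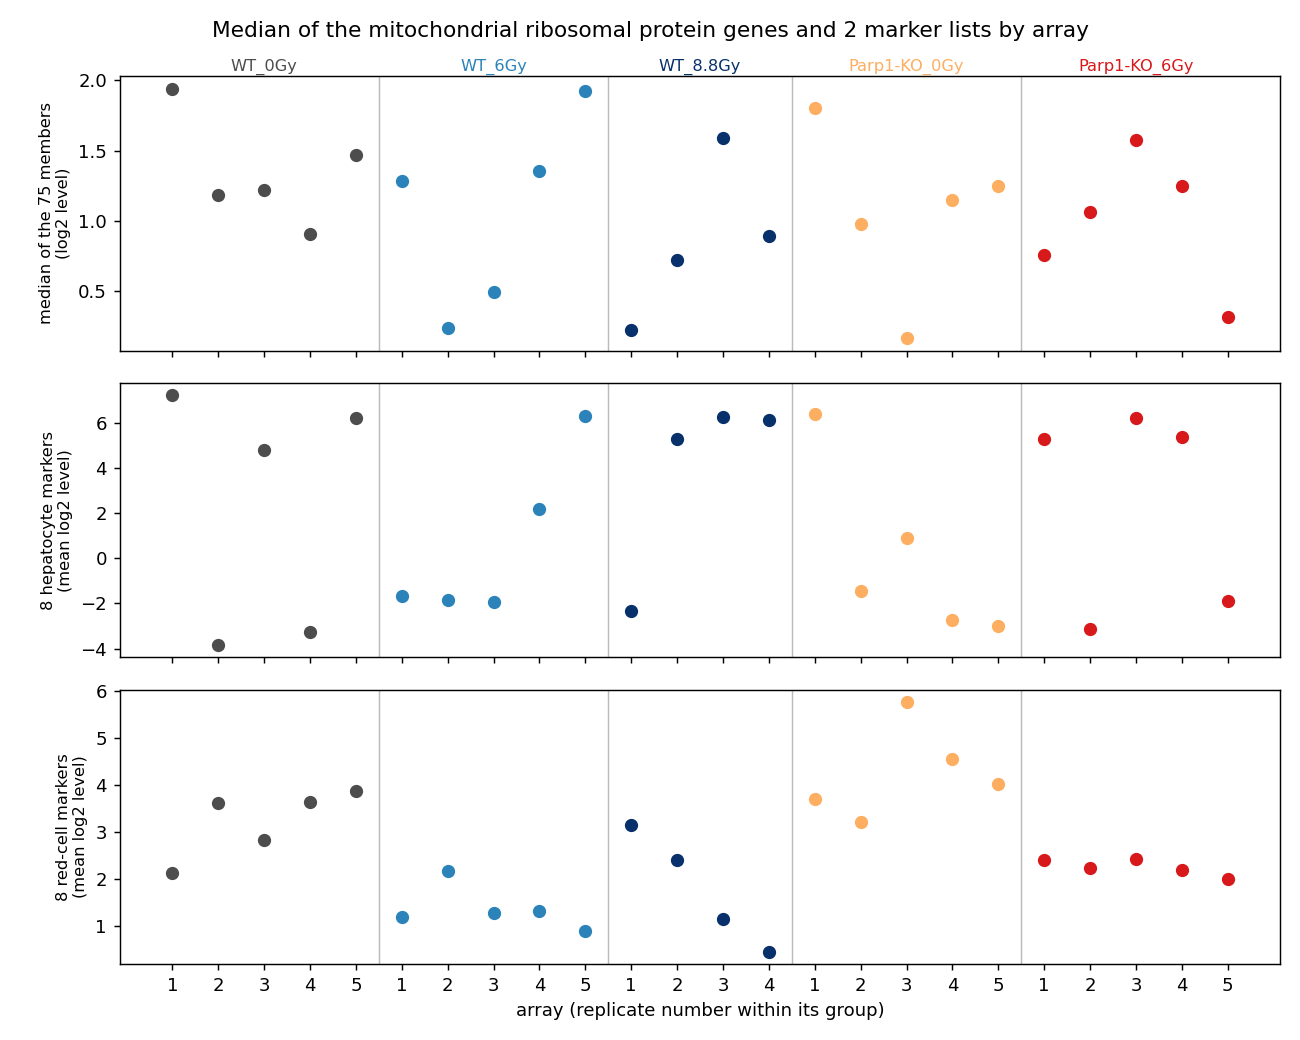
Median log2 level of the 75 mitochondrial ribosomal protein genes (top), mean log2 level of 8 hepatocyte markers (middle) and of 8 red-cell precursor markers (bottom) on each of 24 arrays, 1 point per array, coloured by group. The member medians run from 0.168 to 1.94 and overlap between all groups, and in each group the array with the highest hepatocyte level also has the highest member median.

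In 5 of 5 groups, the array with the highest hepatocyte marker level was also the one with the highest member median. These were WT_0Gy replicate 1 (hepatocyte level 7.23, member median 1.94), WT_6Gy replicate 5 (6.30 and 1.92), WT_8.8Gy replicate 3 (6.26 and 1.59), Parp1-KO_0Gy replicate 1 (6.42 and 1.80) and Parp1-KO_6Gy replicate 3 (6.21 and 1.58). High hepatocyte levels did not always go with a high member median: the arrays labelled WT_8.8Gy replicate 2 and Parp1-KO_6Gy replicate 1 had hepatocyte levels of 5.31 and 5.27 and member medians of 0.722 and 0.761. The part of liver RNA in the members' levels was not tested.

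After the group means were removed, each member was set against the median of the other members over the 24 arrays. The median correlation was 0.847 (Pearson) and 0.831 (Spearman), and 0.863 (Pearson) without Parp1-KO_0Gy replicate 3 and WT_6Gy replicate 2. Pearson's r was over 0.8 for 44 of 75 members (58.7%), against 808 of all 12936 genes (6.25%). The genes share their arrays and their scaling, so this is a description. Mrpl11, a protein of the base of the L7/L12 stalk of the large subunit, followed the others most closely (0.985), ahead of Mrpl41 (0.979), a protein specific to mitochondria, and Mrpl16 (0.974), a core protein of the large subunit. Only 5 members (6.67%) had an r below 0, against 62.8% of all genes. They were Mrps10 (-0.56), Mrps23 (-0.47), Mrpl32 (-0.33), Mrpl2 (-0.24) and Mrps27 (-0.22). Of the 8 genes that passed the test in any comparison described below, 3 were among these 5. Without Parp1-KO_0Gy replicate 3 and WT_6Gy replicate 2, Mrpl2 had an r of 0.083.

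**Figure D2:**
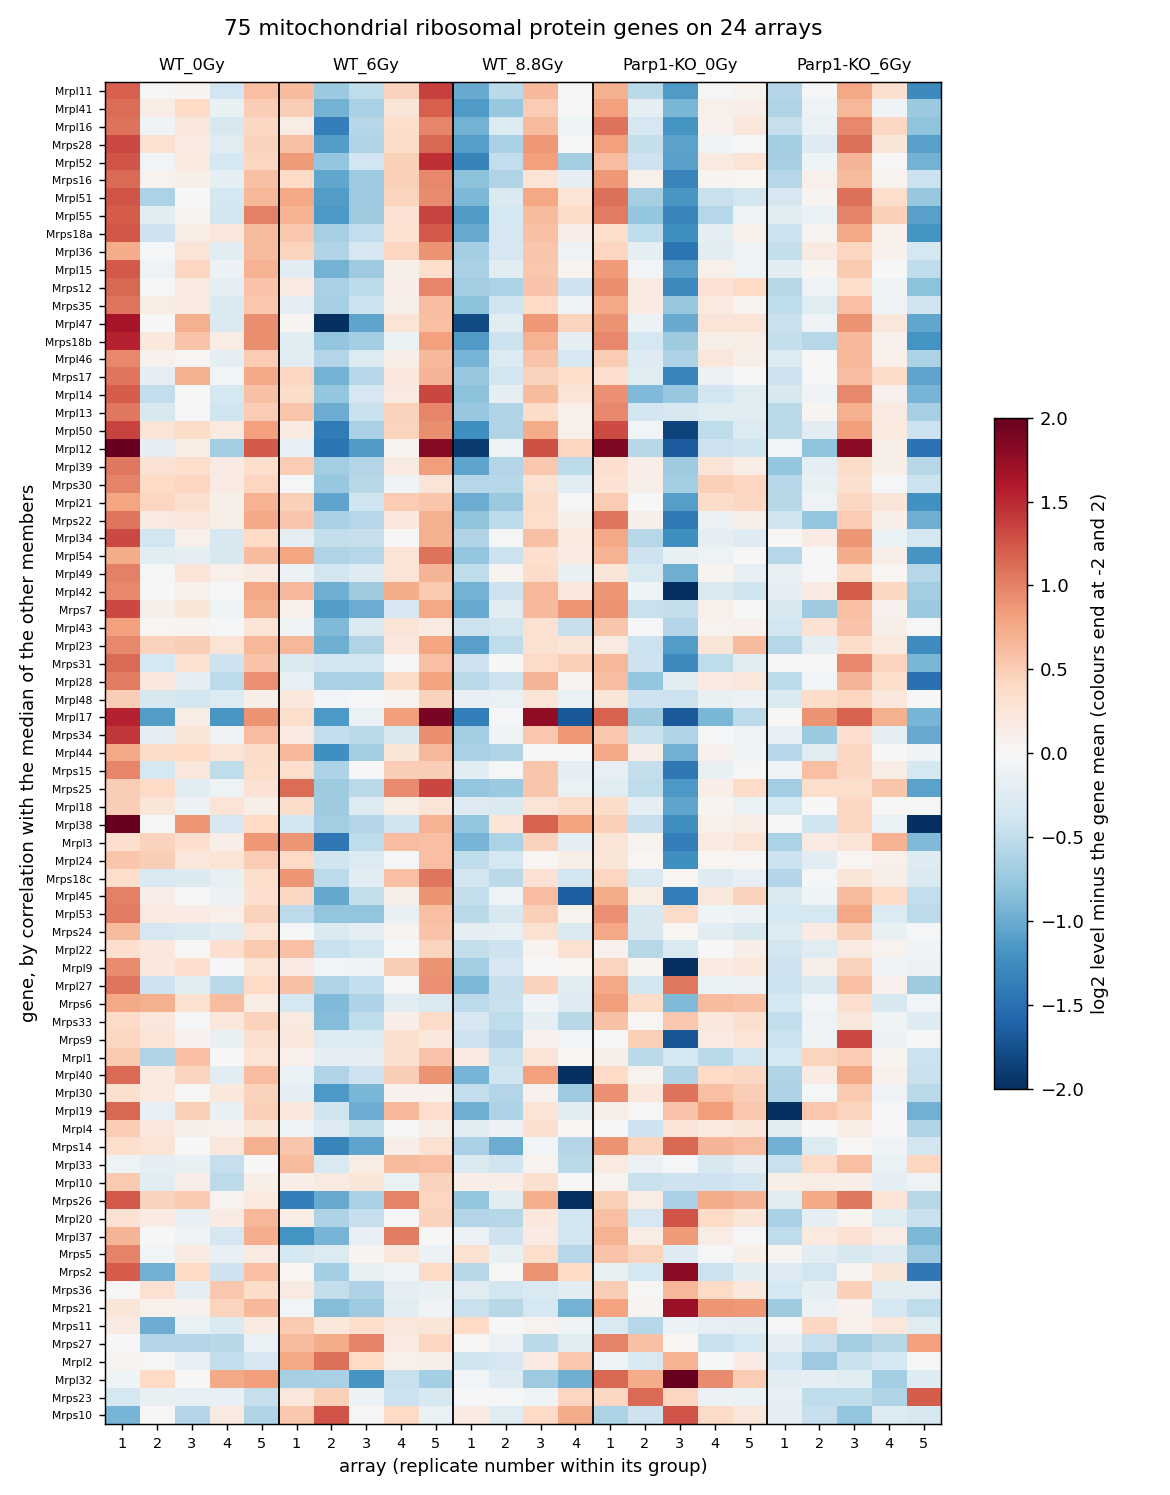
Log2 level minus the gene's mean over 24 arrays for the 75 tested members (rows, ordered from the highest to the lowest correlation with the median of the other members) on each array (columns, replicate numbers within the 5 groups); colours end at -2 and 2. Whole columns are red or blue for most rows, such as WT_0Gy replicate 1 (red) and Parp1-KO_0Gy replicate 3 (blue), while Mrpl32, Mrps21 and the other bottom rows depart from this.

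The members' promoters were searched for motifs of factors known for such genes. RefSeq promoters (GRCm38.p6, the 250 bases before the first listed start) were matched for 66 of the 75 members and for 27025 genes in all. The latter were not limited to genes detected in this blood. Letters were searched on both strands, with a base free to count for several motifs. The NRF1 motif, GCGCA and GCGC with 1 free base between them, bound by a factor of nuclear genes for mitochondrial proteins, was in 9 member promoters (13.6%) and in 3.86% of all. The ETS motif CCGGAAG, of the kind bound by GABP, was in 16 (24.2%) against 7.05% of all, and the GC-box GGGGCGGGG in 13 (19.7%) against 10.5%. The YY1 motif ATGGCGGC was in 1 (1.52%) against 1.04%, and the E-box CACGTG in 5 (7.58%) against 6.05%. Among the 37 matched members with r over 0.8, 4 (10.8%) had the NRF1 and 10 (27.0%) the ETS letters. The promoters of Mrpl32 and Mrps21, the genes that passed in most comparisons, of Mrps27, which passed in the opposite direction, and of Mrpl11, the closest follower, are shown 5′ to 3′ with any match in capitals.
Mrpl32, chr13:14613038-14613287, minus strand: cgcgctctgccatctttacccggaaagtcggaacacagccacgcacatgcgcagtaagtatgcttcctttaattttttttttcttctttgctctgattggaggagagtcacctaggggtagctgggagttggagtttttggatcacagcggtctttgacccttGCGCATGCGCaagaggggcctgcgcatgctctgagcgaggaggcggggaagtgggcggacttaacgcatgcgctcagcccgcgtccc
Mrps21, chr3:95871515-95871764, minus strand: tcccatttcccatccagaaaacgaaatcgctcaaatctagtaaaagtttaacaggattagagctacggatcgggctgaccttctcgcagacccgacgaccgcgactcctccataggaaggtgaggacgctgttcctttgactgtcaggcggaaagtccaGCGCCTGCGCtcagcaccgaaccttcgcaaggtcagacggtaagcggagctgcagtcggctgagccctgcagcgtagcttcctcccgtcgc
Mrps27, chr13:99344536-99344785, plus strand: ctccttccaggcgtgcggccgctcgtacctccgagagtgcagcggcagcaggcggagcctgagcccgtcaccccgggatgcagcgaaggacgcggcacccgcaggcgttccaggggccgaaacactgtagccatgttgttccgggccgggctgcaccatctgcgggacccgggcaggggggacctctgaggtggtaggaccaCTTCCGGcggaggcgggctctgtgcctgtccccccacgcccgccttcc
Mrpl11, chr19:4962056-4962305, plus strand: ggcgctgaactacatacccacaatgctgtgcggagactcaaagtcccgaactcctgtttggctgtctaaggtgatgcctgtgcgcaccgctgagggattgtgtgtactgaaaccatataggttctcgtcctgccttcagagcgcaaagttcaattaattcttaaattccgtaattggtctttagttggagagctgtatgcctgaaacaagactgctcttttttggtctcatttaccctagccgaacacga
The capitals mark an NRF1 match in Mrpl32 and in Mrps21, where it is read on the other strand. In Mrps27 they mark an ETS match, also read on the other strand, and no match was in the Mrpl11 window. A match is a description of the letters, not of binding, and its part in the shared movement of the members was not tested.

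In wild-type blood at 6 Gy, few members passed, and those that did went both ways. The comparison asks which genes differ 24 h after a dose below the lethal one of that genotype. Against WT_0Gy, 2 members were higher (2.67%) and 4 lower (5.33%) at a limma adjusted p under 0.05, whereas 15.5% of all tested genes were called higher and 10.9% lower. At an unadjusted p under 0.05 there were 14 members. The share of all genes at that unadjusted threshold is not given, here or in the comparisons below. Such counts therefore have no background and are not read as a result about the members. The median log2 difference of the members was -0.33, against 0.04 for all genes, with 59 members below 0 and 16 above. With arrays centred on their median instead, 0 members were higher and 34 lower, beside 4.13% and 42.8% of all genes, with a median of -1.11 for the members and -0.74 for all genes. In blood, fewer cells of a type and less RNA per cell cannot be told apart.

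Mrpl32, a large-subunit protein whose processing by a mitochondrial inner-membrane protease gates the assembly of the ribosome, fell most. Its probe (NM_029271) lies at chr13:14702894-14702953 of mm9 per the array files. Mrpl32 was at 1.72, 2.21, 1.80, 2.57 and 2.65 in WT_0Gy and at 1.14, 1.15, 0.621, 1.36 and 1.12 in WT_6Gy. Every irradiated array lay below every sham array, a 2.16-fold lower mean (log2 difference -1.11, SE 0.263, limma adjusted p = 0.00525).

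Mrps6, a small-subunit protein with a bacterial homologue (NM_080456, chr16:92112223-92112282), was at 1.87, 1.83, 1.42, 1.74 and 1.26 in WT_0Gy and at 0.767, 0.242, 0.510, 0.916 and 0.828 in WT_6Gy. The groups did not overlap, and the log2 difference was -0.97 (SE 0.258, limma adjusted p = 0.00979). Mrps21, another small-subunit protein with a bacterial homologue (NM_078479, chr3:95666577-95666636), was at 4.14, 3.99, 3.98, 4.34 and 4.53 in WT_0Gy and at 3.83, 3.02, 3.16, 3.67 and 3.82 in WT_6Gy. It did not overlap either, with a log2 difference of -0.70 (SE 0.253, limma adjusted p = 0.0462). A second Mrps21 probe gave -0.62 (limma adjusted p = 0.0489). Mrps30, which despite its name sits in the large subunit in the structures of the mammalian mitochondrial ribosome (NM_021556, chr13:119169203-119169262), had 0.681 to 1.51 in WT_0Gy and -0.25 to 0.775 in WT_6Gy. Here 1 irradiated array lay above the lowest sham array, and the log2 difference was -0.72 (SE 0.259, limma adjusted p = 0.0448).

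In the other direction, Mrps27, a pentatricopeptide-repeat protein of the small subunit (NM_173757, chr13:100185032-100185091), was at -0.90, -1.51, -1.49, -1.47 and -1.04 in WT_0Gy and at -0.28, -0.16, 0.0872, -0.74 and -0.48 in WT_6Gy. All irradiated arrays were above all sham arrays, by 1.95-fold in the mean (log2 difference 0.97, SE 0.290, limma adjusted p = 0.0189). Mrpl2, a large-subunit protein close to the peptidyl transferase centre (NM_025302, chr17:46787021-46787080), was at 3.50, 3.41, 3.28, 2.95 and 3.11 in WT_0Gy and at 4.22, 4.55, 3.84, 3.54 and 3.56 in WT_6Gy. The rise of 0.69 (SE 0.239, limma adjusted p = 0.0359) turned to -0.088 when arrays were centred on their median, a scaling that moved the median of all genes by -0.78. Under it Mrps27 had 0.185 (limma adjusted p = 0.638), so neither rise passed.

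Mrps21 and Mrps30 missed the threshold without the nearly equal arrays, which are in neither group, with unchanged differences (limma adjusted p = 0.0559 and 0.0504), and Mrps30 also without the arrays labelled Parp1-KO_6Gy replicate 1 and WT_8.8Gy replicate 4 (limma adjusted p = 0.0509). Mrpl32, Mrps6 and Mrps27 passed without WT_6Gy replicate 1 and also without WT_6Gy replicate 2, with a limma adjusted p of at most 0.0445. Without WT_6Gy replicate 1, Mrps30 and Mrpl2 were lost (limma adjusted p = 0.0553 and 0.0838). Without WT_6Gy replicate 2, Mrps21, Mrps30 and Mrpl2 no longer passed (limma adjusted p = 0.129, 0.130 and 0.116), and without WT_6Gy replicate 3, 2 members passed, Mrpl32 and Mrps6. Groups did not overlap for 3 members above the sham arrays, against 8.96% of all genes, and for 3 below, against 9.6%. These were Mrps27, Mrpl2 and Mrps11 above and Mrpl32, Mrps6 and Mrps21 below. With scan day as a block no member passed, and the log2 differences of Mrpl32, Mrps6 and Mrps27 were then -1.59, -1.26 and 0.85. WT_0Gy and WT_6Gy shared no scan day, so that fit links them only through Parp1-KO_6Gy arrays of days 3 and 4. Day 4 held replicate 4 of that group alone.

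Among the members of known place that did not pass at 6 Gy, the stalk proteins Mrpl11 and Mrpl12 differed by -0.05 and -0.73 on the log2 scale (limma adjusted p = 0.949 and 0.490), and Mrpl12 varied more within groups than most (SD 1.20 in WT_0Gy, 1.29 in WT_6Gy). Mrpl45, which helps to hold the ribosome at the inner membrane, had -0.28 (limma adjusted p = 0.652), and Mrpl44, a ribonuclease III-like protein of the large subunit, -0.50 (0.275). The decoding-site proteins Mrps12 and Mrps5 both had -0.32 (0.554 and 0.329), and Mrps7, which binds the 3′ part of the small ribosomal RNA, -0.78 (0.157). The 3 paralogs Mrps18a, Mrps18b and Mrps18c did not share a sign, with -0.19, -0.88 and 0.37 (0.770, 0.104 and 0.331). Values of Mrpl3, Mrpl41, Mrps22 and Mrps34, members of both subunits, ran from -0.46 to -0.34. Mrps36, now known as a part of the 2-oxoglutarate dehydrogenase complex and not of the ribosome, had -0.46 (0.0892).

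At 8.8 Gy, the lethal dose in wild-type mice, 3 members were called lower (4%) and 0 higher. Over all tested genes 8.94% were called lower and 7.03% higher. The unadjusted p was under 0.05 for 15 members, again with no all-gene share at that threshold beside it. The median log2 difference was -0.47 for the members and 0.03 for all genes, and 67 of 75 members were below 0. With normexp background correction 1 member was called higher and 31 lower, beside 18.8% and 18.6% of all genes. This comparison shares the WT_0Gy arrays with the one at 6 Gy, so their values stand side by side and their likeness was not measured.

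Mrpl32 was at 1.75, 1.54, 1.07 and 0.823 in WT_8.8Gy, and its highest array lay just above the lowest sham array. The log2 difference was -0.89 (SE 0.279, limma adjusted p = 0.0325). Mrps21 was at 3.44, 3.33, 3.54 and 2.95, below every sham array, with a log2 difference of -0.88 (SE 0.269, limma adjusted p = 0.0291) and of -0.72 (limma adjusted p = 0.0480) by its second probe. Mrps6 was at 0.593, 0.676, 1.05 and 0.867, also below every sham array, and differed by -0.83 (SE 0.273, limma adjusted p = 0.0411). Mrps27 and Mrpl2, the genes that rose at 6 Gy, had 0.15 and 0.19 here (limma adjusted p = 0.775 and 0.645). Mrps30 had -0.74, close to its value at 6 Gy, with a limma adjusted p of 0.0679.

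All 3 calls depended on the doubtful arrays. Without the array labelled WT_8.8Gy replicate 4 the limma adjusted p was 0.112 for Mrpl32, 0.0934 for Mrps21 and 0.0694 for Mrps6, and no member passed. Leaving out WT_8.8Gy replicate 2 kept 1 call, Mrpl32 (limma adjusted p = 0.0495). Leaving out WT_0Gy replicate 4, an array with no other mark against it, also left 0 calls. Without all 3 doubtful arrays the differences were -0.78 for Mrpl32, -0.70 for Mrps21 and -0.80 for Mrps6.

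The largest differences at 8.8 Gy belonged to members that did not pass. Mrps26, a small-subunit protein specific to mitochondria, had -1.39 (SE 0.592, limma adjusted p = 0.112) and Mrpl40, a large-subunit protein, -1.21 (SE 0.478, limma adjusted p = 0.0865). Without the array labelled WT_8.8Gy replicate 4, the lowest for both, they had -0.59 and -0.60 (limma adjusted p = 0.445 and 0.351), and their second probes gave -0.34 and -0.66 over all arrays. Groups did not overlap for 7 members below the sham arrays, against 11.4% of all genes, and for 1 above, against 6.73%. The 7 were Mrps21, Mrps6, Mrps14, Mrps33, Mrps36, Mrpl24 and Mrpl44, and the 1 above was Mrps23. Mrpl45 had -0.67, Mrps12 -0.64, Mrpl12 -0.63, Mrpl11 -0.52 and Mrps18b -0.95, with limma adjusted p of 0.325, 0.293, 0.622, 0.482 and 0.131.

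In Parp1-/- blood at 6 Gy, the lethal dose of that genotype, 4 members were called lower (5.33%) and 0 higher against the sham-exposed Parp1-/- mice, beside 10.4% of all genes lower and 12.4% higher. The unadjusted p was under 0.05 for 7 members, again with no all-gene share at that threshold beside it. The median log2 difference was -0.06 for the members and -0.07 for all genes, with 42 members below 0 and 33 above, and it changed sign under several settings. All 4 called members have bacterial homologues. Groups did not overlap for 0 members above (9.39% of all genes) and for 2 below (6.01%), Mrpl32 and Mrps14.

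Mrpl32 was at 2.95, 2.55, 3.81, 2.75 and 2.32 in Parp1-KO_0Gy and at 1.58, 1.63, 1.56, 1.11 and 1.55 in Parp1-KO_6Gy. The groups were far apart, with a 2.62-fold lower mean after exposure (log2 difference -1.39, SE 0.263, limma adjusted p = 0.000744). Without the array labelled Parp1-KO_6Gy replicate 1 the difference was -1.41 (limma adjusted p = 0.00176).

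Mrps21 was at 4.70, 3.95, 5.61, 4.77 and 4.75 in Parp1-KO_0Gy and at 3.18, 3.77, 3.98, 3.55 and 3.38 in Parp1-KO_6Gy, so that 1 irradiated array lay above the lowest sham array. The log2 difference was -1.18 (SE 0.253, limma adjusted p = 0.00197), and by the second probe -1.13 (limma adjusted p = 0.00136). Without the array labelled Parp1-KO_6Gy replicate 1 the brightest probe gave -1.09 (limma adjusted p = 0.00694). Mrps14, a small-subunit protein near the decoding region (NM_025474, chr1:162129889-162129948), was at 1.62, 1.17, 1.88, 1.40 and 1.34 in Parp1-KO_0Gy and at -0.24, 0.455, 0.740, 0.627 and 0.348 in Parp1-KO_6Gy. Its groups did not overlap (log2 difference -1.10, SE 0.308, limma adjusted p = 0.0125), and without the array labelled Parp1-KO_6Gy replicate 1 it had -0.94 (limma adjusted p = 0.0413). It missed the threshold when all 3 doubtful arrays were left out, at the same difference (limma adjusted p = 0.0506).

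Mrpl30, a large-subunit protein, was at 4.37, 3.68, 4.55, 4.07 and 3.96 in Parp1-KO_0Gy and at 2.85, 3.42, 3.98, 3.40 and 2.93 in Parp1-KO_6Gy. The groups overlapped, and the log2 difference was -0.81 (SE 0.265, limma adjusted p = 0.0306). Its brightest probe (BC004614) is placed at chr11:3370827-3370886 of mm9 by the array files, whereas RefSeq has the gene on chromosome 1. The second probe (NM_027098) gave -0.77 (limma adjusted p = 0.0281). Without the array labelled Parp1-KO_6Gy replicate 1 the brightest probe gave -0.69 (limma adjusted p = 0.0816) and the call was lost, as it was without Parp1-KO_0Gy replicate 3 (-0.70, limma adjusted p = 0.0738).

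Scan day 1 held 2 Parp1-KO_0Gy arrays and 1 Parp1-KO_6Gy array. Within that day the log2 differences were -1.20 for Mrpl32, -0.94 for Mrps21, -1.05 for Mrps14 and -1.10 for Mrpl30. The 1 Parp1-KO_6Gy array has no spread of its own, and that fit took its spread from the 2 Parp1-KO_0Gy arrays. Only the differences are therefore given, and the members' median of -0.91 within that day reflects those 3 arrays. Mrps6, which fell at both doses in wild type, had -0.40 in the Parp1-/- response (limma adjusted p = 0.278). Its values in Parp1-KO_0Gy were 1.95, 1.49, 0.236, 1.75 and 1.71, with replicate 3 far below the rest. Without that array the difference was -0.69 and passed (limma adjusted p = 0.0141).

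**Figure D3:**
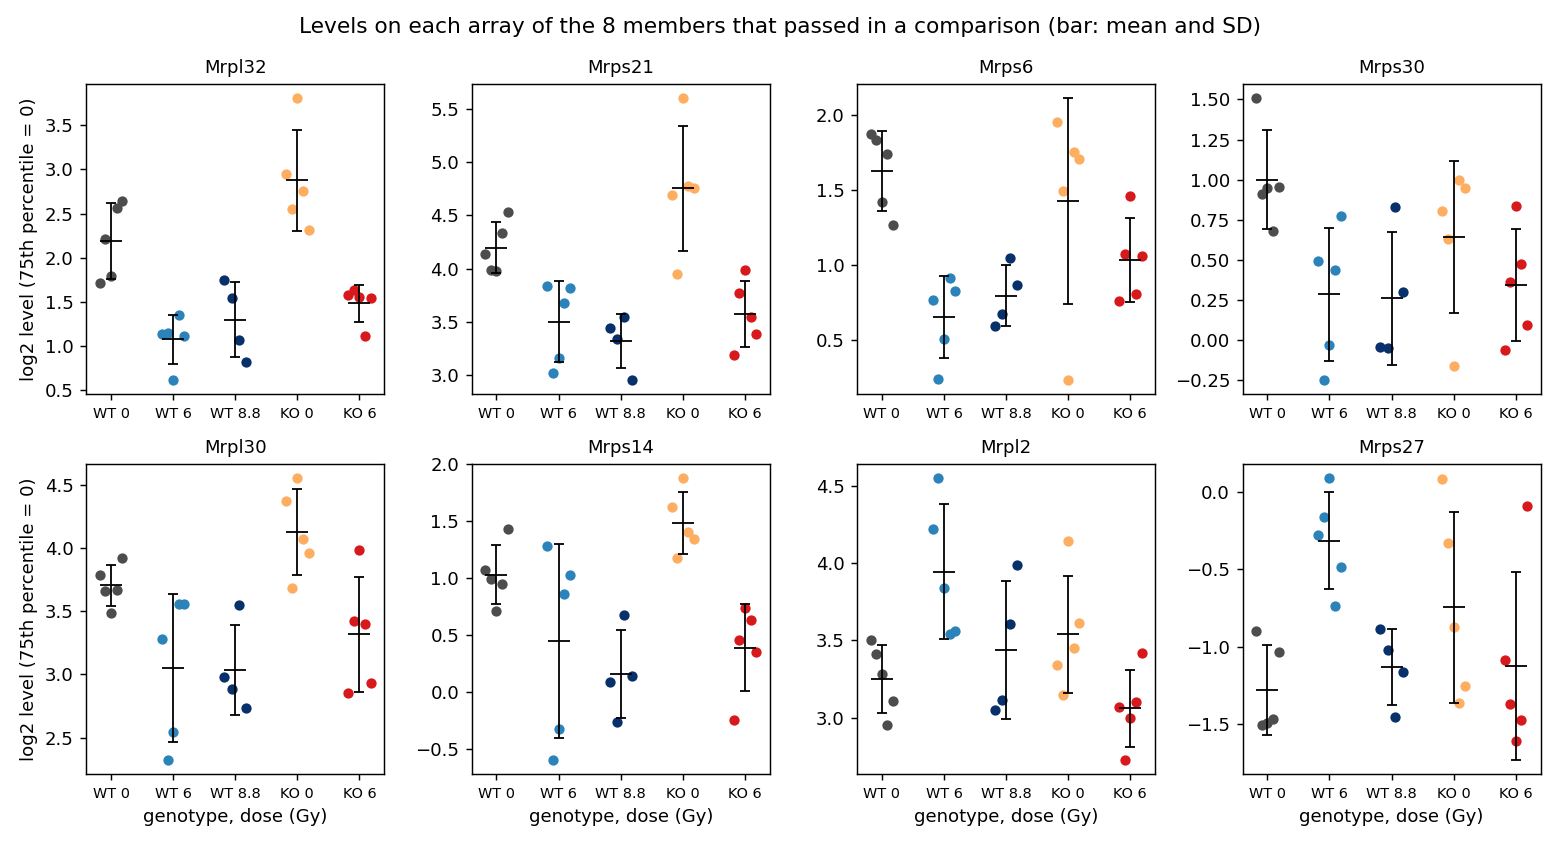
Log2 level on each array (points, 75th percentile of the array at 0) and mean ± SD (bars) of the 8 members that passed in a comparison, by genotype and dose in Gy. Mrpl32 and Mrps21 are lower in all 3 irradiated groups than in the sham group of their genotype, whereas Mrpl2 and Mrps27 are highest on average in wild type at 6 Gy on this scaling; under median centring Mrpl2 turned and Mrps27 had a difference of 0.185.

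Markers of blood cells moved in the same comparisons. Red-cell precursor markers had a mean level over 8 genes of 3.22 in WT_0Gy, 1.38 in WT_6Gy and 1.80 in WT_8.8Gy, and of 4.24 in Parp1-KO_0Gy and 2.25 in Parp1-KO_6Gy. Of 8 red-cell markers, 5, 4 and 5 were called lower in the wild-type 6 Gy, wild-type 8.8 Gy and Parp1-/- responses and 0 higher. The array with the highest red-cell level was Parp1-KO_0Gy replicate 3 (5.75), which also had the lowest member median and the lowest 75th percentile before scaling. Its Mrpl32 (3.81), Mrps21 (5.61), Mrps14 (1.88) and Mrpl30 (4.55) were the highest of its group. T cell markers had 3.79, 2.23 and 1.49 in the wild-type groups in order of dose and 3.50 and 1.66 in the Parp1-/- groups. Of 8 T cell markers, 7, 8 and 8 were called lower in those responses, and of 7 B cell markers tested 4, 5 and 5. Neutrophil markers had 3 of 8 called higher at either wild-type dose and 1 of 8 in the Parp1-/- response. Platelet markers had 0 of 8 called higher at 6 Gy in wild type, 3 at 8.8 Gy and 1 in the Parp1-/- response, and 0 lower. The part of these cells in the members' differences was not tested.

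Without irradiation, no member passed between genotypes. Over all genes 0.634% were called higher and 0.0464% lower in Parp1-KO_0Gy than in WT_0Gy. The unadjusted p was under 0.05 for 3 members, Mrpl32 (0.69, limma adjusted p = 0.160), Mrps21 (0.56, limma adjusted p = 0.219) and Mrpl24 (-0.59, limma adjusted p = 0.199). The members' median log2 difference was -0.36, against -0.05 for all genes, with 60 members below 0. It was 0.59 with scan day as a block. These groups shared no scan day, so that fit links them only through Parp1-KO_6Gy replicate 4 (day 4) and replicate 5 (day 1). The Parp1-KO_0Gy arrays of day 2 add nothing to that value. Mrpl1 was not well above background on any Parp1-KO_0Gy array (mean level -2.23 ± 0.272, SD, n = 5), so its level there is only a bound. Groups did not overlap for 1 member above, Mrps23 (3.84% of all genes), and 0 below (2.09%).

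**Figure D4:**
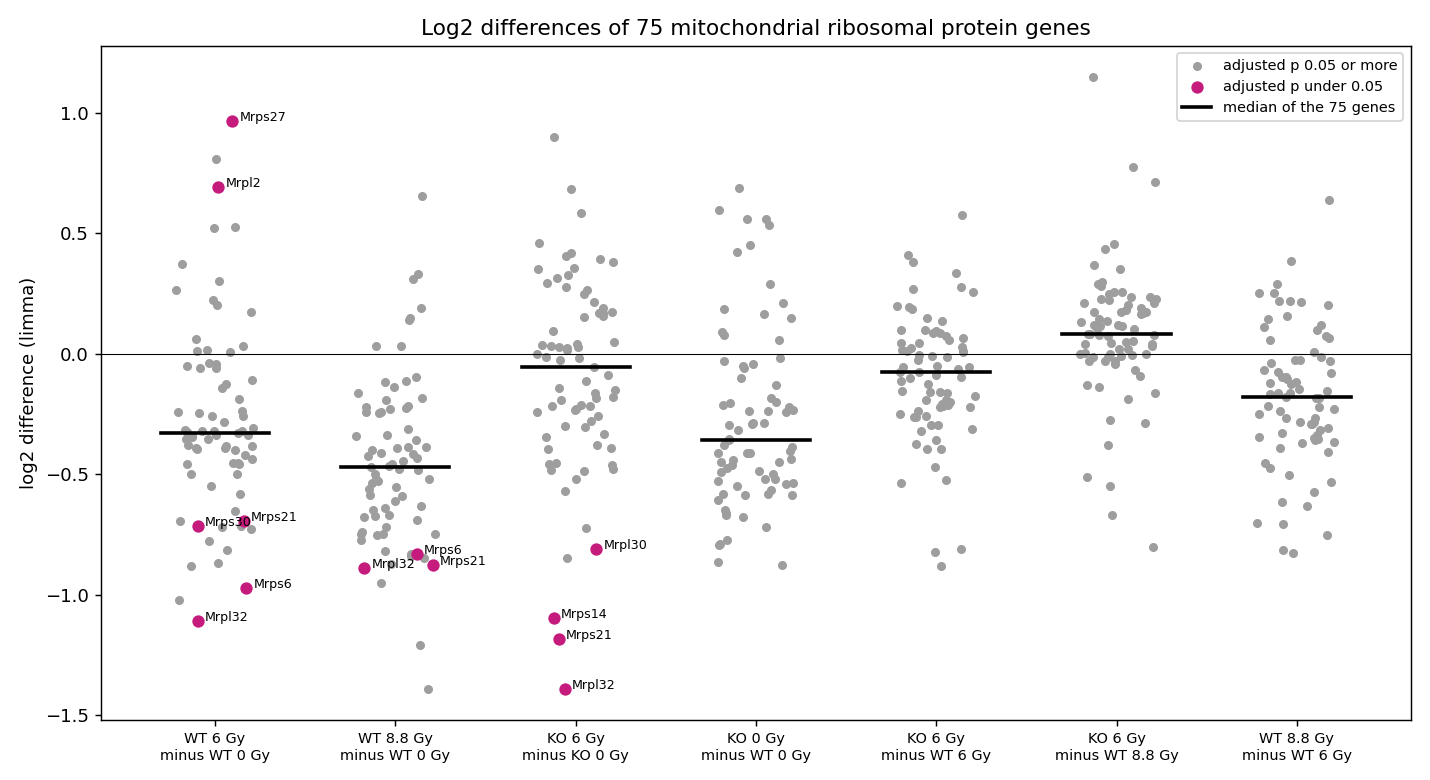
Log2 difference of each of the 75 members (points) in 7 comparisons between groups, with the median of the 75 as a bar; members with a limma adjusted p under 0.05 are larger and named. Calls appear in the 3 comparisons of irradiated with sham-exposed mice and in none of the other 4.

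At 6 Gy in both genotypes, 0 members passed between Parp1-KO_6Gy and WT_6Gy, where 0.363% of all genes were called higher and 0.487% lower. The limma unadjusted p was under 0.05 for 3 members, all lower in the Parp1-/- group: Mrpl2 (-0.88, SE 0.239, limma adjusted p = 0.0600), Mrps10 (-0.82) and Mrps27 (-0.81). The lowest adjusted p was that of Mrpl2, whose levels were 3.07, 2.72, 2.997, 3.10 and 3.42 in Parp1-KO_6Gy, all below every WT_6Gy array. Groups did not overlap for 0 members above (2.95% of all genes) and 2 below (2.15%), Mrpl2 and Mrps10. Differences of the 75 members ran from -0.88 to 0.58. At the lethal dose of each genotype (Parp1-KO_6Gy against WT_8.8Gy), 0 members passed, as did 0% of all genes, and 0 had an unadjusted limma p under 0.05. The differences ran from -0.80 (Mrpl38) to 1.15 (Mrps26) with a median of 0.08. Without the array labelled WT_8.8Gy replicate 4 they ran from -0.66 (Mrpl38) to 0.431 (Mrps9), with Mrps26 at 0.349, and the second Mrps26 probe gave 0.133 over all arrays. The nearly equal pair of arrays lies in these 2 groups; without both, 0 members still passed. With normexp background correction 18 members were called higher and 6 lower, beside 22.3% and 21.8% of all genes.

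Between the wild-type doses, 0 members passed, as did 0% of all genes, and with normexp background correction 1 member was higher and 12 lower, beside 6.32% and 10.2% of all genes. The unadjusted limma p was under 0.05 for 3 members, Mrps27 (-0.82), Mrpl33 (-0.63) and Mrps18c (-0.62), with limma adjusted p of 0.185, 0.180 and 0.275. All 5 Mrps27 values at 6 Gy (-0.74 to 0.0872) were above all 4 at 8.8 Gy (-1.46 to -0.88). It was the 1 member whose groups did not overlap on the lower side (3.05% of all genes), with 0 on the higher side (2.39%).

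The interaction at 6 Gy asks whether the Parp1-/- response differs from the wild-type response, and 1 member passed. Over all genes 0.935% were called higher and 5.19% lower. Mrpl2 rose in wild type on the scaling used and had -0.48 in Parp1-/- blood (limma adjusted p = 0.155), a difference of -1.17 between responses (SE 0.337, limma adjusted p = 0.0448). With median centring it was -0.35 (limma adjusted p = 0.463) and with scan day as a block -0.69 (limma adjusted p = 0.9995), so both ended the call. Without the array labelled Parp1-KO_6Gy replicate 1 it was also -1.17 (limma adjusted p = 0.0448). Without WT_6Gy replicate 2 it was -1.02 (limma adjusted p = 0.0978), and the call was lost in 14 of the 24 fits that left out 1 array. Mrps27 (-1.34, SE 0.410) and Mrps10 (-1.38, SE 0.455) had limma adjusted p of 0.0513 and 0.0655. For Mrpl32 and Mrps21 the difference between the responses was -0.28 (SE 0.372) and -0.49 (SE 0.358), with limma adjusted p of 0.658 and 0.408. Mrps6 had 0.58 (SE 0.364, limma adjusted p = 0.330), or 0.280 without Parp1-KO_0Gy replicate 3, so its fall in wild type was not shown to differ from its value in Parp1-/- blood.

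Divided by name, Mrpl or Mrps, calls were few on both sides. At 6 Gy in wild type, 1 of 46 Mrpl genes was higher and 1 lower, and 1 of 29 Mrps genes was higher and 3 lower. The 3 include Mrps30, which sits in the large subunit, so these counts are by name and not by subunit. The median log2 differences in the wild-type 6 Gy, wild-type 8.8 Gy and Parp1-/- responses were -0.33, -0.47 and 0.01 for Mrpl genes and -0.33, -0.48 and -0.23 for Mrps genes. Of the 45 members with a bacterial homologue, 4, 3 and 4 passed in these responses. Of the 29 specific to mitochondria, 2, 0 and 0 passed, namely Mrps27 and Mrps30. Mrps36 was counted in neither class. The all-gene shares of each response are given above, and these counts by name or class are not read as a result.

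For 22 members a further 23 probes passed the filter. Both probes were called for 1 pair at 6 Gy in wild type, 1 at 8.8 Gy and 2 in the Parp1-/- response. These came from Mrps21 and Mrpl30, had the same direction, and are too few to speak for the other probes. In 1 case a second probe alone passed against the sign of the brightest one: at 6 Gy in wild type the second probe of Mrps2, a small-subunit protein, gave 1.36 (limma adjusted p = 0.0289) and the brightest -0.26 (limma adjusted p = 0.692). In the wild-type 6 Gy response 5 of the 23 had the opposite sign, at 8.8 Gy 1, and in the Parp1-/- response 7. It was 4 of the 23 between sham groups, 6 between genotypes at 6 Gy and 7 at the lethal doses. Between the wild-type doses it was 8, and in the interaction 6.

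Other genes of mitochondrial translation and transcription are given by list, to be read against the all-gene shares of 15.5% higher and 10.9% lower at 6 Gy in wild type, 7.03% and 8.94% at 8.8 Gy, and 12.4% and 10.4% in the Parp1-/- response. The lists hold 7 to 20 tested genes each and were not tested as lists. Of 7 other mitoribosomal proteins, which do not carry an Mrpl or Mrps name on the array, 2 were lower at 6 Gy in wild type, Dap3, a GTP-binding protein of the small subunit (-0.71, limma adjusted p = 0.00964), and Ptcd3, a pentatricopeptide-repeat protein (-0.82, limma adjusted p = 0.0440). At 8.8 Gy Dap3 (-0.63, limma adjusted p = 0.0339) and Mrpl58, a peptidyl-tRNA hydrolase within the large subunit (-0.68, limma adjusted p = 0.0462), were lower, and in the Parp1-/- response 0 of 7 passed.

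Of 20 tested genes of ribosome assembly and ribosomal RNA modification (24 listed), 1 was higher and 2 lower at 6 Gy in wild type, 3 lower at 8.8 Gy and 2 lower in the Parp1-/- response. Mrm1, a methyltransferase of the large ribosomal RNA, fell in all 3 (-1.03, -1.42 and -1.29, with limma adjusted p = 0.00540, 0.00111 and 0.000789). Noa1, a GTPase of small-subunit assembly, also fell in all 3 (-0.99, -1.09 and -0.96). Gtpbp10, a GTPase of large-subunit assembly, rose at 6 Gy in wild type (1.54, limma adjusted p = 0.00558) and had 0.60 at 8.8 Gy and -0.70 in the Parp1-/- response (limma adjusted p = 0.312 and 0.179). Its responses to 6 Gy differed between genotypes by -2.24, the 1 call of this list in the interaction.

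Of 10 tested translation factors (14 listed), 3 were lower at 6 Gy in wild type, 1 at 8.8 Gy and 2 in the Parp1-/- response. Lrpprc, which stabilises mitochondrial messenger RNAs, had -1.26, -0.79 and -0.89 (limma adjusted p = 0.00204, 0.0519 and 0.0151), and Gfm2, which recycles the ribosome, -0.70, -0.50 and -0.71 (limma adjusted p = 0.00724, 0.0730 and 0.00564). The release factor Mtrf1l had -1.73 at 6 Gy in wild type (limma adjusted p = 0.0163), and Mtfmt, which formylates the initiator tRNA, -1.14 at 8.8 Gy (limma adjusted p = 0.00531).

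Of 11 tested mitochondrial aminoacyl-tRNA synthetases (17 listed), 2 were higher at 6 Gy in wild type, Wars2 (1.81, limma adjusted p = 0.00730) and Lars2 (0.93, limma adjusted p = 0.0242). At 8.8 Gy 1 was lower, Hars2 (-0.68, limma adjusted p = 0.0300), and in the Parp1-/- response Lars2 was higher (1.43, limma adjusted p = 0.00145). Of 10 tested genes of mitochondrial transcription and its nuclear regulators (12 listed), 4 were lower at 6 Gy in wild type, Tfam (-1.01), Nrf1 (-0.77), Gabpa (-1.22) and Myc (-1.22). Myc alone passed at 8.8 Gy (-1.47, limma adjusted p = 0.00198) and in the Parp1-/- response (-1.09, limma adjusted p = 0.00563).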

How the data were processed

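RNA of 24 whole-blood samples was hybridised to 1-colour Agilent arrays. The deposited intensity values are the processed signals that Agilent Feature Extraction 11.5.1 wrote, per the file headers, which are background-subtracted; probe coordinates are on mm9. In the deposited log2 table, of 10214 probes, 98.7% to 99.1% of an array's values were its processed signals on the log2 scale shifted by a constant (tolerance 0.001), so higher values there are brighter spots; how that constant was chosen and its centring are unknown. Its column medians were 7.94, 7.68, 7.73, 7.66 and 7.80 in WT_0Gy, 7.75, 7.86, 7.76, 7.65 and 7.70 in WT_6Gy, 7.71, 7.85, 8.04 and 7.97 in WT_8.8Gy, 8.09, 7.66, 8.01, 7.69 and 7.63 in Parp1-KO_0Gy and 7.83, 7.70, 8.06, 7.88 and 7.86 in Parp1-KO_6Gy. It served as an alternative.

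The log2 processed signal was reduced by each array's 75th percentile over non-control probes, and spots of a probe were averaged. A group-means model in limma 3.58.1 (R 4.3.3) was fitted over all 24 arrays and 12936 genes for 8 comparisons, with Benjamini-Hochberg adjustment over all genes and a threshold of 0.05. The number of arrays limits the precision: the median SE of the members was 0.360 for groups of 5. The script was tested on simulated data. Of 39429 probes, 27410 were named through RefSeq, 5571 kept the array's name and 6448 had none. The members and lists were chosen with earlier results of these data known. Named were, per comparison, up to 4 rises and 4 falls past the threshold, a set of members of known place or role, the leading genes of related lists, and members with outlying arrays, several probes or only a bound, and a few others, such as Mrps26, Mrpl40, Mrpl38, Mrps9, Mrps10 and the members below or above the correlations, were named after their values were seen. Motifs were also chosen after the data were seen. Alternatives were other background corrections, scalings, filters, blocks and arrays left out. Same-numbered arrays of different groups did not deviate together: 13 of 46 pairs had a correlation over 0.1 (median -0.05), so the numbers were not taken to pair samples. Each array is 1 mouse per the series description.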

Additional observations from a re-analysis of the deposited data

Results flagged for a closer look

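The 23 named members and the members' median on each array gave 120 sets of values over the 5 groups, in which 6 arrays lay far from the rest of their group. Chance alone flags about 1 group in 20, which is as many as were seen here.

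On Parp1-KO_0Gy replicate 3, the array with the lowest member median, Mrpl3 was at -0.41 (others 1.05 to 1.25), Mrpl45 at -0.84 (others 0.687 to 1.28) and Mrps6 at 0.236 (others 1.49 to 1.95). Mrpl44 was at 0.146 on WT_0Gy replicate 1 (others -0.36 to -0.22), the array with the highest member median. Mrps36 was at 1.58 on Parp1-KO_6Gy replicate 3 (others 0.761 to 0.921), and Mrpl32 at 1.11 on Parp1-KO_6Gy replicate 4 (others 1.55 to 1.63).

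The response of Mrpl2 to 6 Gy differed between genotypes by -1.17 (log2, limma adjusted p = 0.0448), and by -0.35 (limma adjusted p = 0.463) with median centring.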

How the results depend on the processing

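Among values of named members over all alternatives, 5485 kept their side of the threshold, 151 lost and 23 gained it, and 1 reversed. The 1 was the Mrpl2 rise at 6 Gy in wild type, which had -0.088 (log2) with median centring. Direction was not checked for values that stayed short of the threshold, so some of the 5485 can have changed sign. For counts and medians of the members, 575 stayed close and 73 moved. A median was taken as close when it moved by less than 0.550, the pooled SD within groups. All medians of the main fit were smaller than that in size, so a close median could still change sign. A count was taken as close when it was equal or, with both above 0, within a fixed ratio. The 575 are therefore not read as steadiness of the values. The cause of the moves was not tested.

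The number of members called at 6 Gy in wild type was 2 with normexp, 34 with median centring, 0 with a fixed block for slide or for scan day, and 3 with the replicate block. At 8.8 Gy it was 32 with normexp, and 0 without a detection filter, with slide, scan day or the replicate block, without the 2 doubtful or the 2 near-equal arrays, and without all 3 (chosen after seeing the data). In the Parp1-/- response it was 2 with median centring or without the 3 arrays, and 0 with slide or scan day as a block. Between genotypes at 6 Gy it was 3 with median centring, all higher, beside 28% of all genes higher, 2 with the percentile over detected probes, and 1 with quantile normalization, slide as a random block or without the 2 doubtful arrays. With normexp it was 24 at the lethal doses and 13 between wild-type doses. The interaction had 4 with median centring, all higher and so without Mrpl2, beside 27.1% of all genes higher, 3 without a filter, 2 with the percentile over detected probes, and 0 with normexp, the authors' deposited table, slide as a fixed or random block, scan day or the replicate block. The replicate block changed no other count. With slide as a fixed block, WT_0Gy was linked to the other groups only through WT_0Gy replicate 1. The Parp1-/- differences with slide or scan day as a block rest on the same day 1 arrays. Where no share of all genes stands beside a count, here or above, the count is not read as a result about the members.

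The members' median was -1.11 at 6 Gy in wild type with median centring and -1.20 at 8.8 Gy with slide as a block. The slide fit links WT_0Gy to the other groups only through WT_0Gy replicate 1, which shares slide 6 with Parp1-KO_6Gy replicate 4. In the Parp1-/- response the median was -0.91 with slide or scan day as a block or within shared days. These settings are not separate there, because each rests on the same day 1 arrays, which share slide 9. The median was 0.59 between sham groups with scan day as a block and 0.56 between genotypes at 6 Gy with median centring. In the interaction it was 1.07 (median centring) and -0.61 (scan day).

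With 1 array left out, counts ran from 2 to 10 at 6 Gy in wild type, 0 to 7 at 8.8 Gy, 3 to 6 in the Parp1-/- response, 0 to 1 between genotypes at 6 Gy and 0 to 3 in the interaction, and stayed at 0 in the other 3 comparisons. Medians ran from -0.51 to -0.16, -0.70 to -0.29, -0.25 to 0.07, -0.26 to 0.08 and 0.08 to 0.48 in that order, from -0.46 to -0.17 between sham groups, -0.08 to 0.30 at the lethal doses and -0.35 to -0.05 between wild-type doses. The count of 10 came without WT_6Gy replicate 5, and that of 7 without WT_8.8Gy replicate 3. The shares of all genes called in these fits are not given here. A change in count can therefore not be told from a change over all genes. With SEs near 0.360, differences well above that size could also be missed for most members. At 6 Gy in wild type, Mrps18b at -0.88 did not pass (limma adjusted p = 0.104).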
